A study of Homo sapiens with 6 samples.

Results

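The 10 genes described here belong to 2 steroid-type hormone pathways. They are the vitamin D receptor gene VDR with its target CYP24A1, the retinoid X receptors RXRA and RXRB, and the glucocorticoid receptor gene NR3C1 with its targets FKBP5, TSC22D3, PER1, KLF9 and SGK1. They were chosen by name as receptors and classic responders of the pathways by a rule that uses no measured value, although earlier results of these data were known. All 10 were found among the 53826 entries of each table, and all 10 were among the 13181 analysed genes, which had TPM (a transcript level corrected for transcript length and for the size of the library) above 2 in at least 1 of 6 libraries. RNA-seq had been run on 3 libraries of A549-TIPARP cells and 3 libraries of A549-GFP cells. A549 cells were derived from an adenocarcinoma of the human lung. A549-TIPARP cells stably overexpress TIPARP, a mono-ADP-ribosyltransferase induced through the dioxin receptor, from a retroviral pMXs vector, and A549-GFP cells carry GFP in the same vector and served as the control. Both lines were grown in the same serum-containing medium, and the labels name no hormone treatment of either. The titles number the libraries of each line Exp1, Exp2 and Exp3, called replicates 1, 2 and 3 here. The labels do not say what an Exp comprised, whether the lines were handled together within it, or whether a line was derived from 1 clone, so p-values measure the spread between these libraries, which may be in part technical. Where the values of a line follow each other below, they are those of its replicates 1, 2 and 3.

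Both receptors are transcription factors that are switched on by a hormone. VDR binds the active form of vitamin D, pairs with a retinoid X receptor and turns on genes such as CYP24A1, whose enzyme breaks the hormone down again. The glucocorticoid receptor waits in the cytoplasm with HSP90 and its helpers, enters the nucleus once cortisol or a related steroid is bound, and raises a set of genes that damp inflammation and adjust metabolism. A549 cells have long been used as an epithelial model of this response.

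TIPARP itself, which checks the labels, had 6.79, 11.4 and 3.68 TPM across the A549-GFP libraries and 131, 90.5 and 123 TPM across the A549-TIPARP libraries (difference 3.90, standard error 0.34, limma adjusted p = 0.0125). The adjusted p was 0.513 with the replicate number as a block, and 0.0331 to 0.192 with libraries left out in turn, while the lowest A549-TIPARP library stood far above the highest A549-GFP library. All 6 markers of this epithelium, among them KRT8 and KRT18, stood at 61.0 TPM or more in every library. Of 9 markers of endothelium, immune cells and fibroblasts, 8 were at the floor of the tables (1 TPM or less) in every library, and the exception, COL1A1, reached 2.56 TPM. CDKN2A, which is deleted in A549, was at the floor throughout. A549-GFP replicate 2 stood apart from the other libraries: it held the highest value of the 6 for 52.0% of the 13181 genes, and for 7 of the 10 genes described here. The differences of the 10 genes are therefore also given without it. In RNA from whole cultures, fewer expressing cells and less RNA per cell cannot be told apart.

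None of the 10 genes differed between A549-TIPARP and A549-GFP cells past the threshold. With limma on log2(TPM + 1), 0 of 10 had a Benjamini-Hochberg adjusted p under 0.05 in either direction, and 0 of 10 had an unadjusted p under 0.05. Over the 13181 genes, 0.00759% were called higher by the adjusted p and 0.00759% lower, and by the unadjusted p 2.97% were higher and 0.880% lower. No member was more than 2-fold higher or lower on the mean log2 TPM, against 1.53% and 0.432% of all genes. The 3 A549-TIPARP libraries lay below all 3 A549-GFP libraries for 1 of 10 genes, SGK1, and above them for none, against 3.54% and 5.36% of all genes. The median difference of the 10 genes was -0.03, and that of all genes was -0.06 (log2), with 4 of the 10 higher and 6 lower in the mean. Without A549-GFP replicate 2 these medians were 0.14 and 0.04, with 7 of the 10 higher and 3 lower. The intervals show what these libraries could have missed. On log2(TPM + 1), the 95% limma interval reached beyond 2-fold on the lower side for VDR and TSC22D3 and came close to 2-fold for PER1 (to -0.90) and SGK1 (to -0.95). On the upper side it came closest to 2-fold for KLF9 (0.89), TSC22D3 (0.87) and FKBP5 (0.80). That scale understates the change of low genes, most of all of KLF9, close to the floor.

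**Figure D1:**
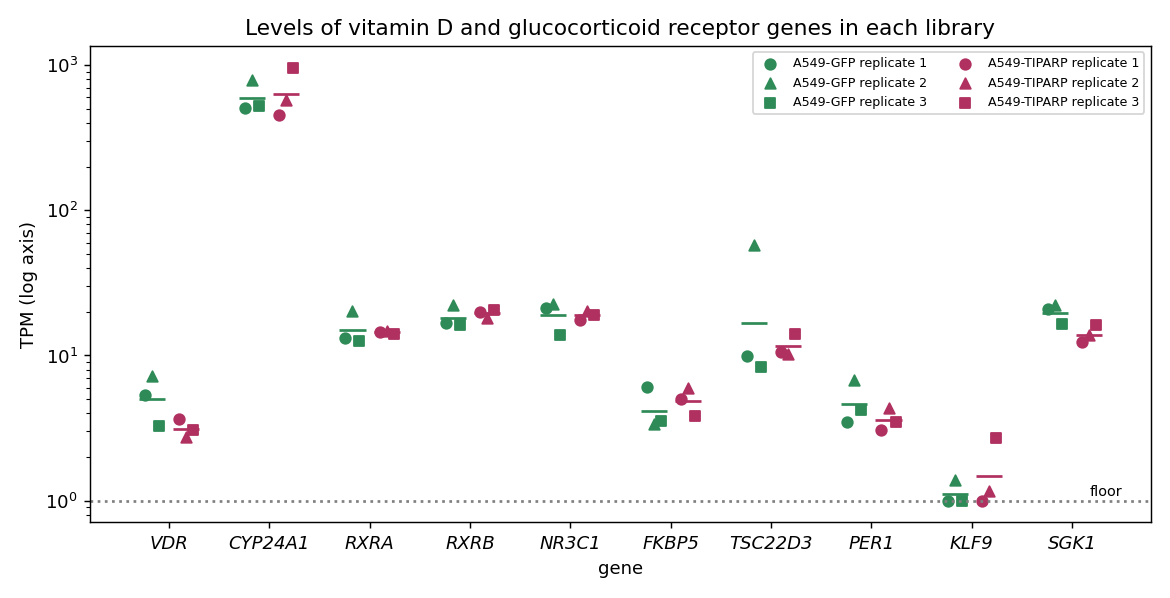
TPM (log axis) of the 10 genes in each of the 6 libraries, with A549-GFP in green, A549-TIPARP in red, a marker shape for each replicate and a short line at the mean of the log2 values of each line (n = 3). CYP24A1 stands between 452 and 963 TPM in all libraries, TSC22D3 reaches 57.8 TPM in A549-GFP replicate 2 alone, and KLF9 lies at or near the dotted floor of 1 TPM.

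The levels themselves spanned a wide range within the cells. CYP24A1 had a geometric mean of 613 TPM over the 6 libraries, and its lowest library, 452 TPM, stood above the highest value of every other member, 57.8 TPM. NR3C1 (18.9 TPM), RXRB (18.8), SGK1 (16.6), RXRA (14.7) and TSC22D3 (13.9) followed, and the ranges of these neighbours overlapped. FKBP5 (4.50 TPM), PER1 (4.08) and VDR (3.97) formed a lower tier whose ranges overlapped with each other but not with that of TSC22D3. KLF9 was lowest, with a geometric mean of 1.28 TPM and no library above 2.72 TPM.

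VDR (Entrez Gene ID 7421) lies on the minus strand of chromosome 12 of hg38 from 47841537 to 47943048, and its canonical transcript has 10 exons. It had 5.38, 7.19 and 3.29 TPM across the A549-GFP libraries and 3.67, 2.74 and 3.05 TPM across the A549-TIPARP libraries. The lines overlapped, because A549-GFP replicate 3 lay below A549-TIPARP replicate 1. The mean log2 TPM was 2.33 ± 0.57 (SD, n = 3) in A549-GFP and 1.65 ± 0.21 (SD, n = 3) in A549-TIPARP cells, a ratio of 0.622. On log2(TPM + 1) the difference was -0.56 (standard error 0.28, 95% interval -1.19 to 0.08, limma adjusted p = 0.994), and the exact two-sided permutation test of its 6 values gave p = 0.2. Without A549-GFP replicate 2 it was -0.34 (standard error 0.22). The sign was the same with every library left out in turn, from -0.81 to -0.34, and the interval with all libraries included no difference.

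CYP24A1 (Entrez Gene ID 1591), the 24-hydroxylase that inactivates vitamin D, lies on the minus strand of chromosome 20 from 54153446 to 54173986, with 12 exons. It was among the more abundant transcripts of these cells, at ranks 143 to 258 of the 13181 genes depending on the library. The A549-GFP libraries had 507, 792 and 522 TPM, and the A549-TIPARP libraries had 452, 580 and 963 TPM. The highest and the lowest of the 6 values both fell in A549-TIPARP cells. The difference was 0.09 on log2(TPM + 1) (standard error 0.29, 95% interval -0.58 to 0.76, limma adjusted p = 0.995), and 0.30 (standard error 0.32) without A549-GFP replicate 2. It took either sign as libraries were left out, from -0.21 without A549-TIPARP replicate 3 to 0.33. Set against its receptor, CYP24A1 stood at 94.2, 110 and 159 times the TPM of VDR across the A549-GFP libraries and at 123, 212 and 316 times across the A549-TIPARP libraries. These ratios overlapped between the lines.

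RXRA and RXRB encode the partners that VDR needs to bind DNA, and they also pair with the retinoic acid, thyroid hormone and fatty acid sensing receptors. RXRA (chromosome 9, 134317098 to 134440585, plus strand) had 13.2, 20.4 and 12.6 TPM across the A549-GFP libraries and 14.5, 14.7 and 14.0 TPM across the A549-TIPARP libraries. RXRB (chromosome 6, 33193588 to 33200665, minus strand) had 16.8, 22.1 and 16.2 TPM across the A549-GFP libraries and 19.9, 18.1 and 20.7 TPM across the A549-TIPARP libraries. For both genes A549-GFP replicate 2 was the highest library and A549-GFP replicate 3 the lowest, so that the A549-TIPARP values fell inside the A549-GFP range. The difference was -0.06 (standard error 0.23, interval -0.59 to 0.47) for RXRA and 0.10 (standard error 0.20, interval -0.37 to 0.56) for RXRB, on log2(TPM + 1). Without A549-GFP replicate 2 they were 0.15 (standard error 0.13) and 0.23 (standard error 0.14), and every A549-TIPARP library then stood above both other A549-GFP libraries for either gene, as for 21.2% of all genes. In the lower direction 6.42% of all genes were apart in that set. The annotated RXRB overlaps SLC39A7 on the opposite strand, and the use of strand in the counting is not given in the sources used here. The third family member, RXRG, was at the floor in all 6 libraries.

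NR3C1 (Entrez Gene ID 2908; chromosome 5, 143277931 to 143435512, minus strand, 9 exons) is the glucocorticoid receptor gene. It had 21.4, 22.8 and 13.8 TPM across the A549-GFP libraries and 17.6, 20.1 and 19.0 TPM across the A549-TIPARP libraries. All 3 A549-TIPARP values lay inside the A549-GFP range. The geometric means were 18.9 TPM in both lines, and the difference on log2(TPM + 1) was -0.0049 (standard error 0.23, 95% interval -0.54 to 0.53, limma adjusted p = 0.999). It was 0.12 (standard error 0.21) when A549-GFP replicate 2 was left out. The interval with all libraries allows a ratio of TPM + 1 between 0.690 and 1.44. The gene-level values do not separate the receptor's alpha and beta isoforms, which share most of their exons. The mineralocorticoid receptor gene NR3C2, the other receptor that binds cortisol, had 1.63, 2.70 and 1 TPM across the A549-GFP libraries and at most 1.06 TPM across the A549-TIPARP libraries, with 3 libraries at the floor (difference -0.41, standard error 0.26). NR3C2 was analysed only through A549-GFP replicate 2, and without that library the difference was -0.18 (standard error 0.14).

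Of the 5 glucocorticoid targets, SGK1 (Entrez Gene ID 6446; chromosome 6, 134169248 to 134318112, minus strand), a kinase that regulates ion channels and transporters, was the member whose lines did not overlap. It had 21.0, 22.1 and 16.5 TPM across the A549-GFP libraries and 12.3, 13.8 and 16.1 TPM across the A549-TIPARP libraries. The gap between the closest libraries, 16.5 and 16.1 TPM, was narrow. The mean log2 TPM was 4.30 ± 0.23 (SD, n = 3) in A549-GFP and 3.80 ± 0.20 (SD, n = 3) in A549-TIPARP cells, a ratio of 0.711. On log2(TPM + 1) the difference was -0.46 (standard error 0.21, 95% interval -0.95 to 0.02, limma adjusted p = 0.994). The exact permutation test of its 6 values (two-sided) gave p = 0.1, the smallest that 3 libraries against 3 allow. Without A549-GFP replicate 2 the difference was -0.39 (standard error 0.19), and with each library left out it stayed between -0.59 and -0.38. The adjusted p was never under 0.548 in any alternative.

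TSC22D3 (Entrez Gene ID 1831; chromosome X, 107713221 to 107777342, minus strand) encodes GILZ, a leucine zipper protein that carries part of the anti-inflammatory action of glucocorticoids. It had 9.86, 57.8 and 8.38 TPM across the A549-GFP libraries and 10.5, 10.3 and 14.1 TPM across the A549-TIPARP libraries. A549-GFP replicate 2 lay far above the other libraries, which spanned only 8.38 to 14.1 TPM. With all libraries the difference was -0.54 (standard error 0.62, 95% interval -1.94 to 0.87, limma adjusted p = 0.994) on log2(TPM + 1). Without that library the sign turned, to 0.31 (standard error 0.19, limma adjusted p = 0.644), and every A549-TIPARP library stood above both remaining A549-GFP libraries, again as for 21.2% of all genes. The direction for TSC22D3 therefore rests on 1 library, and what set that library apart was not tested. The annotated TSC22D3 overlaps NCBP2L on the opposite strand.

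The starts of the genes were searched in RefSeq promoter windows (GRCh38.p14), of which 22 were given for 8 of the 10 genes. VDR and CYP24A1 had none. The full glucocorticoid response element (AGAACA, any 3 bases, then TGTTCT) was in 0 of the 22 windows, and in 0.00285% of all 35116. Its inner core ACANNNTGT, a stretch within the full element, was in 2 windows, which cover the same letters near 2 starts of TSC22D3, and in 5.37% of all. Both strands were searched. A single arm of the element, AGAACA, was in 5 windows of 4 genes, RXRA, RXRB (1 match seen from 2 starts), FKBP5 and SGK1, and in 14.8% of all. The direct repeat of AGGTCA after a gap of 3 bases, to which VDR and its partner bind, was in 0 of the 22 and in 0.00570% of all. These are matches of letters and not sites of binding. The windows below are shown for SGK1, the member whose lines did not overlap, and for TSC22D3, the member that varied most. Each runs 5′ to 3′ on the gene's strand from 250 bases before an annotated start to 30 bases after it, with the matched letters in capitals. Both genes have further starts, which gene-level TPM does not separate.
SGK1, chr6:134177832-134178111, single arm at positions 6 to 11 after the start: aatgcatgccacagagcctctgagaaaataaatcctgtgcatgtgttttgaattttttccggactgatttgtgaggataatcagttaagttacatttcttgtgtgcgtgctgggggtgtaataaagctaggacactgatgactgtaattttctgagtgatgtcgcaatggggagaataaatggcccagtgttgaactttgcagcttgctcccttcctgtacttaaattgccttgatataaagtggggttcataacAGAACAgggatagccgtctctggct
TSC22D3, chrX:107775959-107776238, core from position -7 to 2: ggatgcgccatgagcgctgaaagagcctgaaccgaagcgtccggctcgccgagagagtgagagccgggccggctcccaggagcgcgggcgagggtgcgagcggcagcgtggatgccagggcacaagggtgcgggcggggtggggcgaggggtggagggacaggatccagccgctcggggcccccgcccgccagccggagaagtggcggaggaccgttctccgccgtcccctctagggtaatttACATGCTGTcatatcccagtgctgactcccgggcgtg

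The other targets were lower in level. FKBP5 (chromosome 6, 35573585 to 35728583) encodes a co-chaperone that lowers the receptor's affinity for hormone and is itself induced by it, as a feedback. It had 6.02, 3.37 and 3.54 TPM across the A549-GFP libraries and 5.05, 6 and 3.84 TPM across the A549-TIPARP libraries, with a difference of 0.19 (standard error 0.27), and 0.06 (standard error 0.26) without A549-GFP replicate 2. FKBP5 was the only member whose lowest library was A549-GFP replicate 2. PER1 (chromosome 17, 8140472 to 8156506), a repressor of the circadian clock that glucocorticoids induce directly, had 3.48, 6.77 and 4.20 TPM across the A549-GFP libraries and 3.08, 4.36 and 3.47 TPM across the A549-TIPARP libraries. Its difference of -0.30 (standard error 0.27) became -0.07 (standard error 0.17) without A549-GFP replicate 2. KLF9 (chromosome 9, 70384604 to 70414657), a zinc finger repressor, was at the floor in A549-GFP replicates 1 and 3 and in A549-TIPARP replicate 1. It was analysed because of a single library, A549-TIPARP replicate 3 with 2.72 TPM, and its other values were 1.38 and 1.17 TPM. Its difference was 0.26 (standard error 0.28), with -0.02 when A549-TIPARP replicate 3 was left out and 0.34 when A549-GFP replicate 2 was. For these 3 genes the lines overlapped and the limma adjusted p was 0.994.

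**Figure D2:**
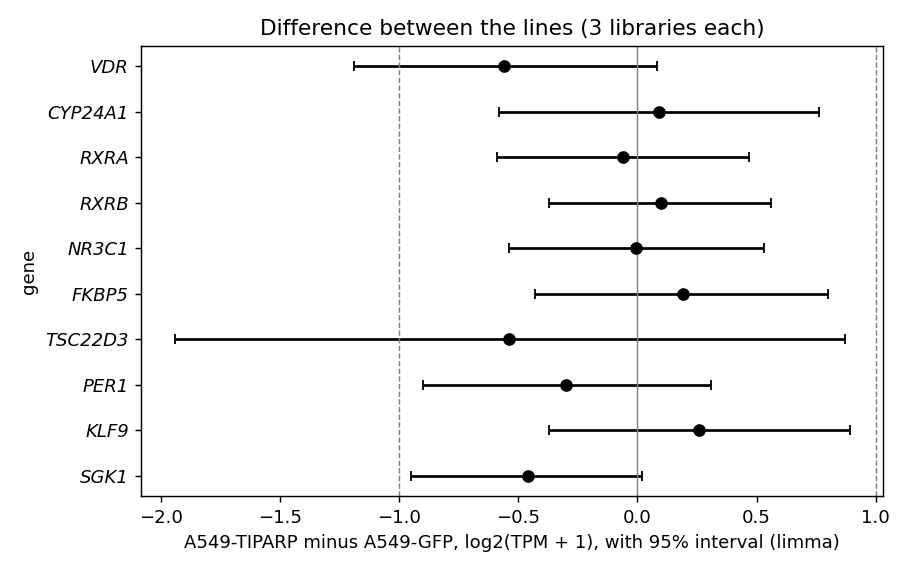
Difference of the lines (A549-TIPARP minus A549-GFP) on log2(TPM + 1) for each gene, with its 95% limma interval from 3 libraries per line. The solid line marks no difference and the dashed lines mark 2-fold in either direction, and all 10 intervals include 0, that of SGK1 by 0.02.

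**Figure D3:**
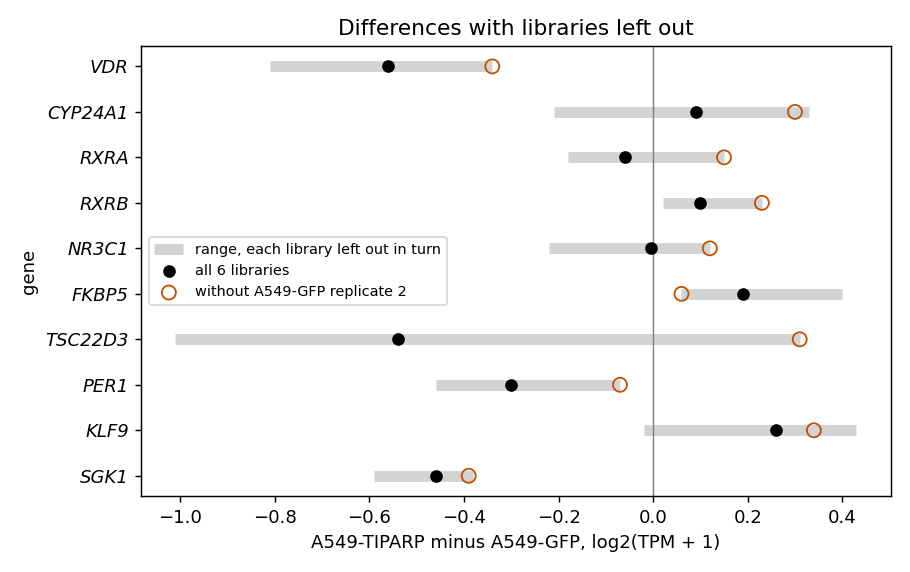
The same differences with all 6 libraries (black), without A549-GFP replicate 2 (open orange), and as a range over the fits that leave out each library in turn (grey bars). TSC22D3 moves from -0.54 to 0.31 without A549-GFP replicate 2, while SGK1 stays between -0.59 and -0.38 and VDR between -0.81 and -0.34.

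Genes that make, break down or carry vitamin D were analysed in part, as were 13181 of all 53826 entries. Of 9 listed genes, 8 of synthesis, breakdown, uptake and transport and RXRG, 3 were analysed, and the carriers and receptors for uptake (GC, LRP2, CUBN) were below the filter. CYP27B1, which makes the active hormone, had 2.04, 5.91 and 1.71 TPM across the A549-GFP libraries and 1.42, 2.05 and 1.23 TPM across the A549-TIPARP libraries. CYP2R1, which takes the first activating step, ranged from 14.0 to 33.3 TPM, and DHCR7, which draws the precursor off into cholesterol, from 49.8 to 121 TPM. None of the 3 passed the adjusted or the unadjusted threshold. Their median difference was -0.24, and -0.09 without A549-GFP replicate 2.

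Of 17 further vitamin D receptor targets, 10 were analysed. The intestinal calcium handling targets TRPV5, TRPV6, S100G and CALB1 were at the floor in every library. None of the 10 had an adjusted p under 0.05, and 1 had an unadjusted p under 0.05 and a lower mean, against 0.880% of all genes. This was IGFBP3, which binds insulin-like growth factors. It had 694, 1795 and 773 TPM across the A549-GFP libraries and 503, 514 and 703 TPM across the A549-TIPARP libraries, and the lines overlapped (difference -0.80, standard error 0.34, limma adjusted p = 0.994). Its difference was -0.37 without A549-GFP replicate 2. G0S2, an inhibitor of fat breakdown, was the only gene of the list past 2-fold, in the lower direction (0.432% of all genes), with 3.19, 70.4 and 1.17 TPM across the A549-GFP libraries and 2.22, 1.76 and 2.64 TPM across the A549-TIPARP libraries. SPP1, which encodes osteopontin and was second in level after IGFBP3, ranged from 375 to 660 TPM. The G0S2 difference of -1.44 became 0.08 without A549-GFP replicate 2, which held the highest value for 8 of the 10 genes. The median of the list was -0.29 with all libraries and 0.23 without that one. In the fit without it, 4 of the 10 had an unadjusted p under 0.05 and a higher mean in A549-TIPARP cells (CD14, THBD, DUSP10 and PTHLH) and none a lower one. CD14, DUSP10 and THBD were then the 3 genes past 2-fold, all higher, against 2.91% of all genes. In the same fit 9.30% of all genes passed in the higher and 1.16% in the lower direction. Among the libraries of that fit, CD14, DUSP10 and PTHLH were above 2 TPM in A549-TIPARP cells alone. Their place in these counts is therefore not support for a difference.

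All 12 listed coregulators were analysed, and none passed the adjusted or unadjusted threshold. They included the coactivators CARM1 (55.8 to 70.9 TPM over the libraries) and NCOA3 (31.2 to 44.8 TPM). A549-GFP replicate 2 was the highest library for 9 of the 12, and the median difference went from -0.14 to 0.00 without it. All 12 listed chaperones of the glucocorticoid receptor were also analysed and none passed either threshold. HSP90AB1 had 1276, 710 and 1173 TPM across the A549-GFP libraries and 991, 1327 and 796 TPM across the A549-TIPARP libraries, HSP90AA1 ranged from 393 to 988 TPM, and HSPA8 from 1114 to 1611 TPM. Their median difference was -0.18, and -0.26 without A549-GFP replicate 2. Of the 6 genes of glucocorticoid metabolism and its second receptor, 5 were analysed. HSD11B1, which regenerates cortisol, was at the floor in every library, and HSD11B2, which inactivates it, had 4.19, 2.69 and 3.25 TPM across the A549-GFP libraries and 5.28, 2.86 and 5.09 TPM across the A549-TIPARP libraries (difference 0.29, standard error 0.27, and 0.16 to 0.51 with libraries left out in turn). The more abundant genes of the list were H6PD (7.43 to 15.5 TPM), which feeds HSD11B1 with its cofactor, the steroid exporter ABCB1 (5.83 to 13.8 TPM) and the steroid reductase SRD5A1 (4.78 to 10.2 TPM). None of the 5 passed either threshold, and their median difference was 0.22. Without A549-GFP replicate 2 the median was 0.17, and ABCB1 had an unadjusted p under 0.05 and a higher mean (difference 0.58, standard error 0.22), as 9.30% of all genes did.

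Among 22 further glucocorticoid targets, 18 were analysed and none had an adjusted p under 0.05. At an unadjusted p under 0.05, 3 were higher in A549-TIPARP cells and 3 were lower, against 2.97% and 0.880% of all genes. For these 6 the lines did not overlap, as for 5.36% of all genes in the higher and 3.54% in the lower direction. The higher genes were the metal-binding metallothioneins MT2A and MT1X and the transcription factor gene TFCP2L1, and these were also the 3 past 2-fold, against 1.53% of all genes. TFCP2L1 was above 2 TPM in the A549-TIPARP libraries alone, so it was analysed only through the line in which it was higher, and its place in these counts is not support for a difference. MT2A and MT1X were known to lie past 2-fold in these libraries when the list was written, so their count is not independent evidence. MT2A had 51.7, 53.6 and 39.7 TPM across the A549-GFP libraries and 116, 97.0 and 129 TPM across the A549-TIPARP libraries (difference 1.22, standard error 0.19, limma adjusted p = 0.217). MT1X had 26.2, 15.6 and 20.4 TPM across the A549-GFP libraries and 56.0, 39.3 and 44.7 TPM across the A549-TIPARP libraries (difference 1.15, standard error 0.24, limma adjusted p = 0.424). TFCP2L1 stayed below 1.43 TPM in A549-GFP and reached 2.61, 2.41 and 2.58 TPM across the A549-TIPARP libraries (difference 0.67, standard error 0.20, limma adjusted p = 0.856).

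The lower genes were RGS2, NFKBIA and DDIT4. RGS2, which shortens G protein signals, had 16.2, 21.5 and 13 TPM across the A549-GFP libraries and 9.56, 11.0 and 8.57 TPM across the A549-TIPARP libraries (difference -0.72, standard error 0.24, limma adjusted p = 0.983). NFKBIA, the inhibitor that holds NF-kappaB in the cytoplasm, had 100, 167 and 115 TPM across the A549-GFP libraries and 81.0, 91.4 and 80.1 TPM across the A549-TIPARP libraries (difference -0.56, standard error 0.21). DDIT4, an inhibitor of mTORC1, had 345, 651 and 416 TPM across the A549-GFP libraries and 301, 330 and 239 TPM across the A549-TIPARP libraries (difference -0.66, standard error 0.25). Without A549-GFP replicate 2 the differences were -0.54, -0.35 and -0.40, and the 3 genes still did not overlap between the lines, as for 6.42% of all genes. In the fit without it, 6 of the 18 had an unadjusted p under 0.05 and a higher mean and 2 a lower one, against 9.30% and 1.16% of all genes, and 5 were past 2-fold higher, against 2.91% of all genes. MT1X was not among these 5. SCNN1A, BCL6 and GLUL passed there in the higher direction in addition, and DDIT4 no longer passed, so the even count of 3 and 3 rests on A549-GFP replicate 2. The median of the 18 targets was -0.09 and turned to 0.08 without that library. In the fit without it GLUL, like TFCP2L1, was above 2 TPM in A549-TIPARP cells alone. The place of GLUL and TFCP2L1 in the counts of that fit is therefore not support for a difference. ZBTB16, CRISPLD2 and KLF15, which respond strongly to glucocorticoids in many cells, were at the floor in all 6 libraries.

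**Figure D4:**
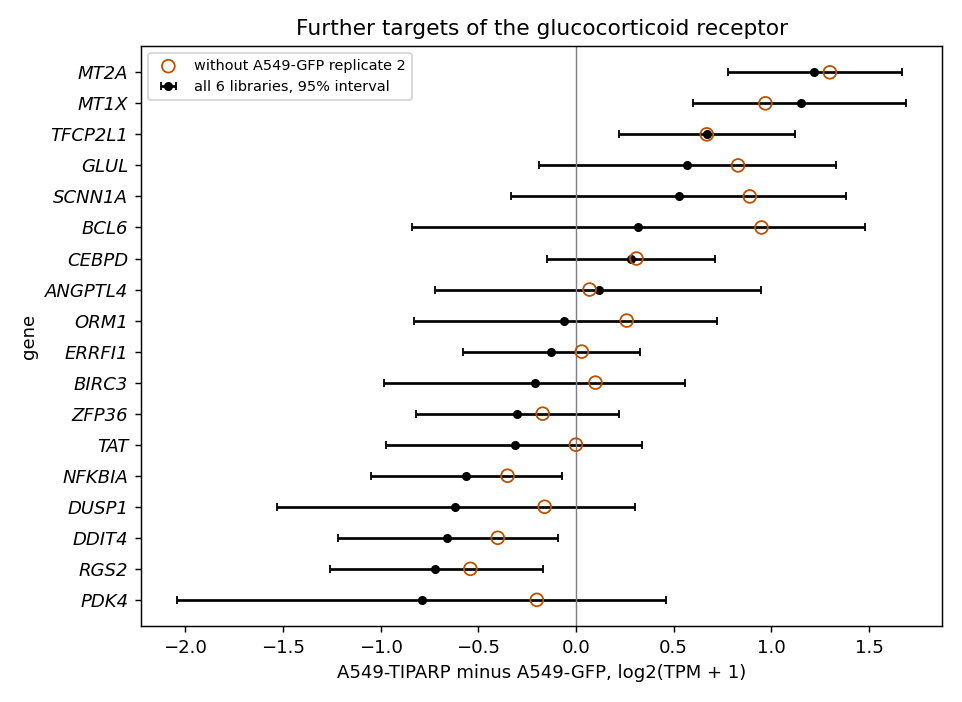
Difference of the lines on log2(TPM + 1) for the 18 analysed further targets of the glucocorticoid receptor, with 95% limma intervals (black) and the value without A549-GFP replicate 2 (open orange). MT2A, MT1X and TFCP2L1 lie above 0 with their intervals, and NFKBIA, DDIT4 and RGS2 lie below 0 with theirs.

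The genes whose pattern over the 6 libraries was most like that of the receptors were found by the root mean square difference of log2(TPM + 1) profiles, each centred on its own mean. For VDR they were ETS2 (0.060), CERK (0.079) and ZNF689 (0.086). ETS2 had 33.7, 43.1 and 20.8 TPM across the A549-GFP libraries and 22.7, 19.4 and 18.8 TPM across the A549-TIPARP libraries. For NR3C1 they were CLINT1 (0.028), SHTN1 (0.035) and B3GNT2 (0.042), all with their lowest value in A549-GFP replicate 3. These likenesses rest on 6 libraries and were picked from 13181 genes.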

How the data were processed

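RNA-seq tables of 3 A549-GFP and 3 A549-TIPARP libraries were analysed. Stranded mRNA libraries were made and sequenced for the authors by a service provider. The authors mapped read pairs to hg38 transcripts in Strand NGS with its defaults and deposited the log2 of the TPM of each gene, 1 table per library. The lowest deposited value is 0, and without the entries at 0 each library totals 998332 to 998442 TPM, so TPM below 1 was taken to have been set to 1. TPM keeps no read depth, and no counting error is given. The software version, the annotation release and the treatment of shared reads are not given in the sources used here.

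Lines and replicate numbers came from the sample titles. Genes above 2 TPM in at least 1 library were kept, as in the study's methods. Values were turned back to TPM, and log2(TPM + 1) was fitted with limma 3.58.1 in R 4.3.3 with a variance trend, without a block, and adjusted over the 13181 genes by the Benjamini-Hochberg method. Differences are A549-TIPARP minus A549-GFP, and the pseudocount of 1 makes those of low genes smaller. Ratios of the lines and 2-fold counts use the deposited log2 values. The fit was also run on simulated data as a check of the code, and it did not call all of the changes put in. No result here rests on that run. Gene positions are those of GENCODE 44 on hg38.

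The members and lists were chosen with earlier results of these data known, so no p was adjusted over a list alone. All members were named. From the lists, genes past an adjusted p of 0.05, past 2-fold or with an unadjusted p under 0.05 were named, filled up to 3 per list by level, and genes named beyond these (carriers, genes at the floor, CYP27B1, HSD11B1, HSD11B2 and NR3C2, and those passing without A549-GFP replicate 2) were picked after their values were seen. Some genes that the rule names are not reported here. The alternatives were a pseudocount of 0.1 or none, a filter of TPM above 2 in 3 or more libraries, no filter (entries at the floor in all 6 libraries still left out), median-ratio rescaling, limma without a trend, the replicate number as a block, and each library left out.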

Additional observations from a re-analysis of the deposited data

How the results depend on the processing

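None of the 10 genes reached an adjusted p under 0.05 in any of the 129 alternative fits of single members, where the lowest was 0.548. The sign was the same in every alternative for VDR, RXRB, FKBP5, PER1 and SGK1, and it turned in 11 of the 129. Median-ratio rescaling, which moved the median of all genes from -0.06 to 0.00, gave 0.01 for RXRA and 0.06 for NR3C1, 2 of these 11 that follow from that shift. Leaving out A549-GFP replicate 1 gave -0.02 for CYP24A1 and 0.08 for NR3C1. Leaving out A549-GFP replicate 2 gave 0.15 for RXRA, 0.12 for NR3C1 and 0.31 for TSC22D3, and leaving out A549-GFP replicate 3 gave -0.0029 for CYP24A1. Leaving out A549-TIPARP replicate 1 gave 0.04 for NR3C1, and leaving out A549-TIPARP replicate 3 gave -0.21 for CYP24A1 and -0.02 for KLF9. The cause was not tested. With libraries left out in turn the values ran from -0.81 to -0.34 for VDR, -0.21 to 0.33 for CYP24A1, -0.18 to 0.15 for RXRA, 0.02 to 0.23 for RXRB, -0.22 to 0.12 for NR3C1, 0.06 to 0.40 for FKBP5, -1.01 to 0.31 for TSC22D3, -0.46 to -0.07 for PER1, -0.02 to 0.43 for KLF9 and -0.59 to -0.38 for SGK1. KLF9 had no value with TPM above 2 required in 3 libraries. The difference of G0S2, which is not a member, ran from -2.44 to 0.08, and the value of 0.08 was that without A549-GFP replicate 2. List medians ran from -0.48 to -0.09 for vitamin D synthesis, -0.45 to 0.23 for vitamin D targets, -0.35 to 0.00 for coregulators, -0.30 to 0.01 for chaperones, 0.03 to 0.36 for glucocorticoid metabolism and -0.23 to 0.08 for glucocorticoid targets.

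The check gene TIPARP fell short of the adjusted threshold without a filter (adjusted p = 0.0965) and with the replicate block (adjusted p = 0.513), and its adjusted p ran from 0.0331 to 0.192 with libraries left out. Over all genes, 2 were called by the adjusted p, 1 without a filter, 1 with the replicate block, and from 1 to 3 with libraries left out. Genes past 2-fold went from 202 to between 228 and 383 higher and from 57 to between 39 and 200 lower with libraries left out, and 37 were lower after rescaling. Genes at an unadjusted p under 0.05 went from 508 to 779 after rescaling and ran from 253 to 1379 with libraries left out. Same-numbered libraries did not pair: their deviations correlated across genes with r = 0.452, -0.516 and -0.379, so the replicate block, which changed no call on the 10 genes, rests on the number in the titles alone. The tables hold no read depth, so the spread between 3 libraries per line is the only error available, and it was widest for TSC22D3.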

Other observations

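Of the 48 genes of the human nuclear receptor family, a list added after the data were seen, 32 were analysed. By geometric mean TPM over the 6 libraries NR2F6 came first in the family, NR3C1 stood at rank 10, RXRB at rank 11, RXRA at rank 14 and VDR at rank 28. By limma, 0 of the 32 receptors passed an adjusted p of 0.05, and 1 had an unadjusted p under 0.05, in the lower direction, where 0.880% of all genes passed. This was NR4A1, an orphan receptor and immediate early gene, with 51.0, 39.6 and 56.8 TPM across the A549-GFP libraries and 33.9, 29.7 and 35.0 TPM across the A549-TIPARP libraries (difference -0.56, standard error 0.20, adjusted p = 0.994). It was not highest in A549-GFP replicate 2, and its difference was -0.70 (standard error 0.13) without that library. The lines also did not overlap for NR4A2, NR1H4 and THRB, which were lower, and for RARG, which was higher. Of the 32, 4 thus lay lower and 1 higher without overlap, against 3.54% and 5.36% of all genes. A549-GFP replicate 2 held the highest value for 23 of the 32 receptors.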
